A study of Homo sapiens with 12 samples.

Results

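The clustered histone genes encode the linker histone H1 and the core histones H2A, H2B, H3 and H4. Members were all genes whose symbol in the platform annotation begins with H1-, H2AC, H2BC, H3C or H4C followed by a number. This rule found 63 members among the 18417 genes measured, of which 60 are protein-coding. The other 3 are the antisense RNA H1-10-AS1, which partners H1-10, and the pseudogenes H1-9P and H2BC19P. The coding members comprised 9 genes of class H1, 14 of H2A, 16 of H2B, 8 of H3 and 13 of H4. Each member was read by 1 probe set that carries no other gene symbol, and no filter on low values was applied. Another 14 histone symbols were present only on probe sets shared between genes and are described apart. H4C14 and H4C15 had identical values in every array, so they are 1 measurement counted under 2 names.

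Transcript levels were measured on Affymetrix arrays in SKmel147, an established human melanoma line, after lentiviral delivery of short hairpin RNAs. H2AZ2, which encodes the histone variant H2A.Z.2, was targeted by sh_37 and sh_38, and H2AZ1, which encodes H2A.Z.1, by sh_83 and sh_84. Control cells expressed a scrambled or a luciferase hairpin. Each of the 6 hairpins had 2 arrays, which gives 4 arrays per target and 12 in all, and all cells were infected. Sample titles mention siRNA whereas the protocol describes hairpins, and the wording of the protocol is kept. In sh_84, replicate 2 carries the name of another hairpin in one of its labels and was grouped by its title. No label states that replicates are separate cultures or infections. The p-values of single hairpins therefore cover only array-to-array spread, possibly technical. Those of the target comparisons also take in spread between the hairpins of a target. The number of arrays limits the precision.

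Most clustered histone genes are transcribed when DNA is copied, in S phase. Their short, intronless transcripts end in a stem-loop bound by SLBP instead of a poly(A) tail, and transcription is driven by NPAT, a target of cyclin E and CDK2. Newly made H2A, H2B, H3 and H4 package the copied DNA, while H1 binds the linker between nucleosomes. H2A.Z is made from genes outside these clusters and replaces H2A in part of the nucleosomes. In these bulk samples a smaller share of cells in S phase and less histone RNA per such cell cannot be told apart.

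The promoters of 6 members are shown because these genes carry the results: H2BC21 as the member that rose, and H1-3, H2AC14, H2BC3, H3C1 and H4C4 as members that fell in each class after H2AZ2 hairpins. Each sequence is from RefSeq (GRCh38.p14), reads 5′ to 3′ along the gene and covers 250 bases before to 50 after the gene's start. Capitals mark the CCAAT box and the TATA box word TATAAA, the octamer ATTTGCAT, and 4 words that fit the E2F site, which are TTTGGCGC and TTTCCCGC and TTTCGCGC and TTTGCCGC, all on either strand. Each motif was counted on its own, and overlaps between motifs were not removed.
H2BC21 (chr1:149886633-149886932, minus strand): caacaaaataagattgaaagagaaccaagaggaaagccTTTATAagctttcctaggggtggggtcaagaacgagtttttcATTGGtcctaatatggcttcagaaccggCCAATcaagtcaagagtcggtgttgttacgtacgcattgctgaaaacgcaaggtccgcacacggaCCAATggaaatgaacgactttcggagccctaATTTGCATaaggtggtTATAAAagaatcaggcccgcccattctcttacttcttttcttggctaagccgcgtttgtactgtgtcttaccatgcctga
H1-3 (chr6:26234938-26235237, minus strand): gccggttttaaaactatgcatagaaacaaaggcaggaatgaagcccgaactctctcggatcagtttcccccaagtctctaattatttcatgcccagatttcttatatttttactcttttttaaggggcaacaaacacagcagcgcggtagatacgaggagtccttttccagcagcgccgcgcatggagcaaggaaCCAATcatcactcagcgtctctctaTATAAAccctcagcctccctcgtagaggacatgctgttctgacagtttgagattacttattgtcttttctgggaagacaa
H2AC14 (chr6:27814728-27815027, minus strand): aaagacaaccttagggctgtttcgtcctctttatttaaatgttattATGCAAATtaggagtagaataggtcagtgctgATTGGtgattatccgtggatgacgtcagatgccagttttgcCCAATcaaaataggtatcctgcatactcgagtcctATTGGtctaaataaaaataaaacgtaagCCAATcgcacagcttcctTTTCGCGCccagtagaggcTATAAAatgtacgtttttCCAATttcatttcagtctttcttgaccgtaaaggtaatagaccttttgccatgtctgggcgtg
H2BC3 (chr6:26043664-26043963, minus strand): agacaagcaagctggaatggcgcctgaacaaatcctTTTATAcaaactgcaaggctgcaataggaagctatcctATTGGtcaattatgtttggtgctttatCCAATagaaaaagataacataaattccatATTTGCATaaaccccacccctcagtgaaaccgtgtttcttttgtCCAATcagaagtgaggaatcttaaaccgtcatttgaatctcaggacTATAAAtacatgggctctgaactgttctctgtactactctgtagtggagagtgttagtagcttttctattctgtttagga
H3C1 (chr6:26020201-26020500, plus strand): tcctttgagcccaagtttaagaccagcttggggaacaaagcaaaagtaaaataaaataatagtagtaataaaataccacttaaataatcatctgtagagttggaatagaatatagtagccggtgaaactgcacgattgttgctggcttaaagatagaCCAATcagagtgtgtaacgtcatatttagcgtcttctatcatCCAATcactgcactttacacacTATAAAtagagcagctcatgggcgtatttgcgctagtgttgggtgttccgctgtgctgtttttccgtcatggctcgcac
H4C4 (chr6:26189063-26189362, minus strand): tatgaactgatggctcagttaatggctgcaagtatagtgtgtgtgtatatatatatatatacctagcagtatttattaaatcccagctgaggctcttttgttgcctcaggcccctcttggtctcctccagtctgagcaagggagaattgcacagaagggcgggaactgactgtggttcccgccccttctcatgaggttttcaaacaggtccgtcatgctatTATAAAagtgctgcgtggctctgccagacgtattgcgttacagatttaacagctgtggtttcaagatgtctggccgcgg

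Of the 60 coding members, 55 had a promoter of this length in the table, which holds 15843 coding promoters in all. CCAAT was present in 83.6% of the members' promoters and in 36.4% of all coding promoters. TATAAA was present in 63.6% of the members' promoters and 9.63% of all, the octamer in 41.8% of the members' and 1.70% of all, and an E2F word in 27.3% of the members' and 4.44% of all. The octamer was found in 10 of 13 H2A promoters and 13 of 16 H2B promoters, and in none of 9 H1, 6 H3 and 11 H4 promoters. Among the 17 genes that fell after H2AZ2 hairpins and had a promoter, 16 held CCAAT, 12 TATAAA, 8 the octamer and 6 an E2F word. Among the 37 that did not pass the test, these counts were 29, 22, 14 and 9. H2BC21 held 3 copies of CCAAT, 2 of TATAAA and 1 octamer, and no E2F word in this window. The window of H2AC20, which starts 236 bases away on the other strand, overlaps it and gave the same counts. Windows of genes that start head to head overlap in this way, so copies in the shared stretch are counted for both genes. A match of letters is a description of the sequence and not a measured binding site.

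The targeted transcripts and the cell identity were checked first. H2AZ2 stood at 54.9% of the control level with its hairpins (log2 difference -0.86, SE 0.12, limma adjusted p = 0.00482), at 46.1% with sh_37 and 65.4% with sh_38. H2AZ1 was at 19.3% of the control level with sh_83. In the arrays labelled sh_84 it was at 92% (limma adjusted p = 0.859), a level not measurably lower. The H2AZ1 group as a whole therefore includes 2 arrays without a measured knockdown. Of the melanocyte markers 6 of 7 were measured: SOX10 read 10.23 to 10.80 and MITF 8.14 to 8.40 over the 12 arrays. PMEL, MLANA, TYR and S100B all lay below the median probe set of the arrays, which was 7.00 to 7.10. The 6 fibroblast markers averaged 6.67 to 6.96 in the H2AZ2 arrays, 6.34 to 6.64 in the H2AZ1 arrays and 6.40 to 6.59 in the controls, and 2 of the 6, LUM (1.27, limma adjusted p = 1.18e-05) and COL1A1 (0.69, limma adjusted p = 0.00401), were higher with sh_37. With sh_38, 1 of the 6 was higher, LUM again (0.38, limma adjusted p = 0.0374). In the arrays labelled sh_84 LUM was lower (-0.85, limma adjusted p = 0.00396), and SOX10 was lower with sh_37 (-0.30). The 4 keratinocyte markers averaged 6.39 to 6.69 in the H2AZ2 arrays, 6.48 to 6.62 in the H2AZ1 arrays and 6.30 to 6.71 in the controls, and none passed. The 4 leukocyte markers averaged 6.90 to 7.28 in the H2AZ2 arrays, 7.03 to 7.13 in the H2AZ1 arrays and 6.95 to 7.15 in the controls, and CD68 was lower with sh_37 (-0.58, limma adjusted p = 0.00152). The part of these markers in the histone results was not tested.

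H2AZ2 hairpins against the controls asked which histone transcripts change when H2A.Z.2 is lowered. Of the 63 members, 19 fell and 1 rose at a limma adjusted p under 0.05 over all genes, where 2.44% of all genes fell and 0.863% rose. The members that fell came from all classes, with 2 of H1, 6 of H2A, 5 of H2B, 4 of H3 and 2 of H4. The member that rose was H2BC21. All 19 that fell had 4 H2AZ2 arrays wholly below the 4 controls. In all, 30 members lay wholly below and 2 wholly above the controls, against 7.46% and 4.14% of all genes. The median log2 difference was -0.39 over the 60 coding members and 0.03 over all genes, and 53 of the 60 values lay below 0, against 43.7% of all genes.

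This count rests on the control arrays. The members that fell numbered 2 when scrambled replicate 1 was left out, 12 without luciferase replicate 1 and 7 without luciferase replicate 2. They numbered 1 without the scrambled hairpin and 0 without the luciferase hairpin. Each of the 20 called members kept its direction under all alternatives in which it was measured. Several of these, such as the threshold, the variance model or leaving out H2AZ1 arrays, cannot change a difference between H2AZ2 and control arrays. The calls themselves were kept unevenly. H1-3 stayed called in 27 of 29 alternatives and H1-5 in 26 of 29. H3C12 stayed called in 11 of 29, H3C1 in 12 of 29 and H2AC14 in 14 of 28. H2AC14 and H2BC6 were not measured when the dimmest 25% of genes were left out.

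**Figure D1:**
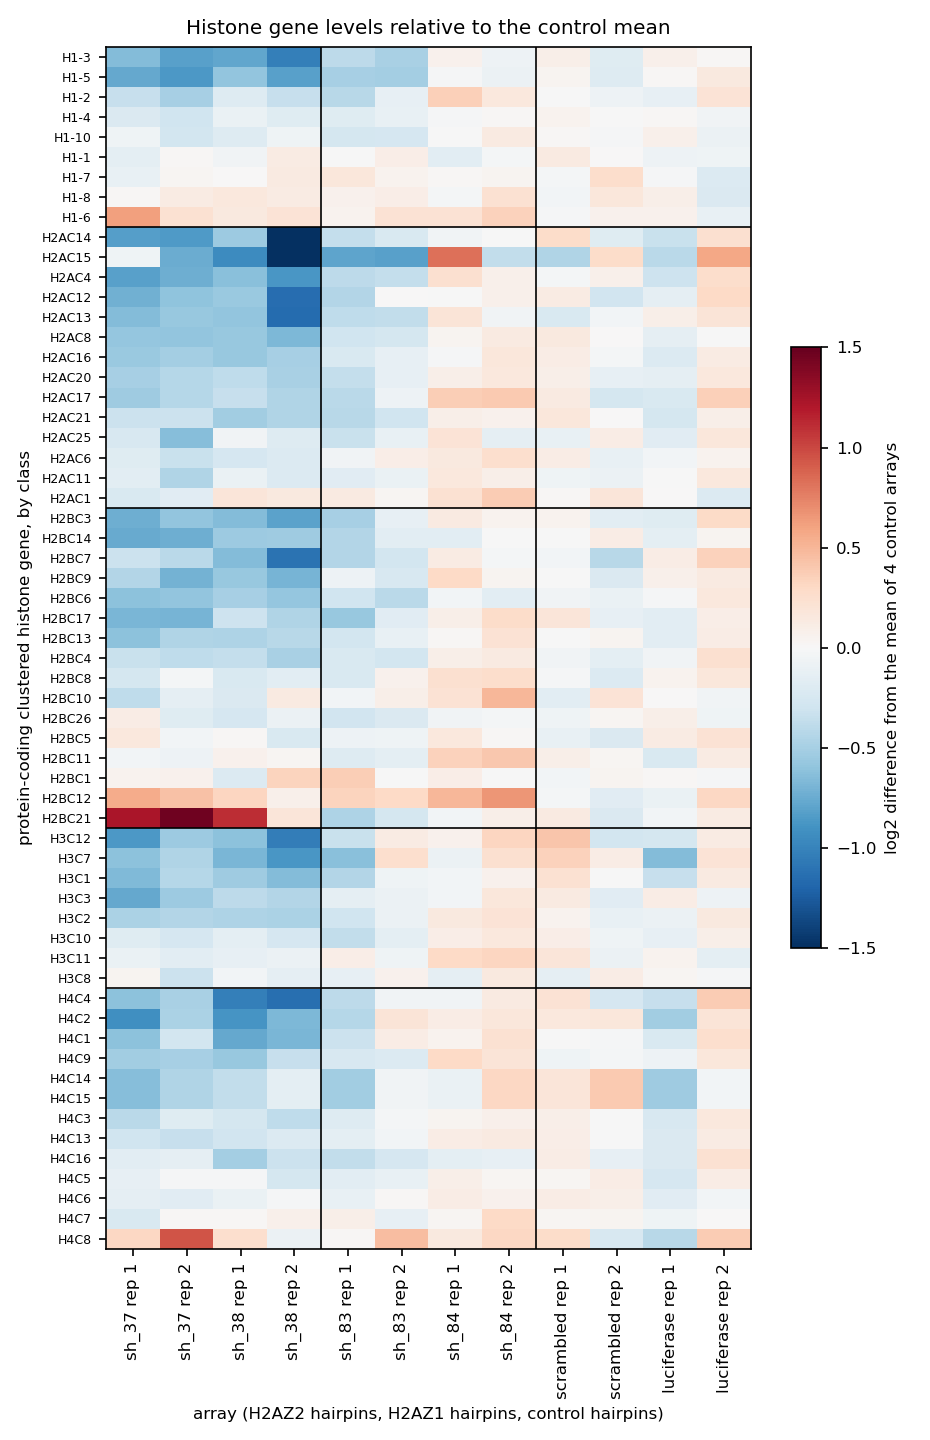
Log2 difference of each coding member (rows, by class) from the mean of the 4 control arrays, in each of the 12 arrays (columns). Colours run to 1.5 in either direction and differences beyond that take the end colour. The H2AZ2 columns are mostly blue in every class, and H2BC21 stands out in red in the sh_37 columns and in sh_38 replicate 1.

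The classes differed in how far their medians lay from the controls, although differences between classes were not tested. The median log2 difference was -0.15 for H1, -0.49 for H2A, -0.28 for H2B, -0.50 for H3 and -0.31 for H4. The H1 median is the value of H1-10, which lies outside the clusters. The class also holds H1-6 (0.30), H1-7 (0.02) and H1-8 (0.10), genes known chiefly from germ cells. The other H1 genes were H1-1 (-0.02), H1-2 (-0.34), H1-3 (-0.82), H1-4 (-0.20) and H1-5 (-0.76). All 14 H2A genes and all 8 H3 genes had a value below 0, as did 13 of 16 H2B, 12 of 13 H4 and 6 of 9 H1 genes. Over the coding members the median per array was -0.34 and -0.41 with sh_37 and -0.35 and -0.34 with sh_38, against 0.05, -0.02, -0.12 and 0.12 in the control arrays. The 4 H2AZ2 arrays thus lay below all controls and close to each other. In the same arrays the 176 small nucleolar RNA genes, short non-coding RNAs of the nucleolus, had medians of -0.06, -0.10, -0.08 and -0.31 in the H2AZ2 arrays, against -0.01, -0.27, 0.06 and 0.14 in the controls, and the 2 groups overlapped. With the mean log2 level of the small nucleolar RNA genes in each array as a covariate, 7 members fell.

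**Figure D2:**
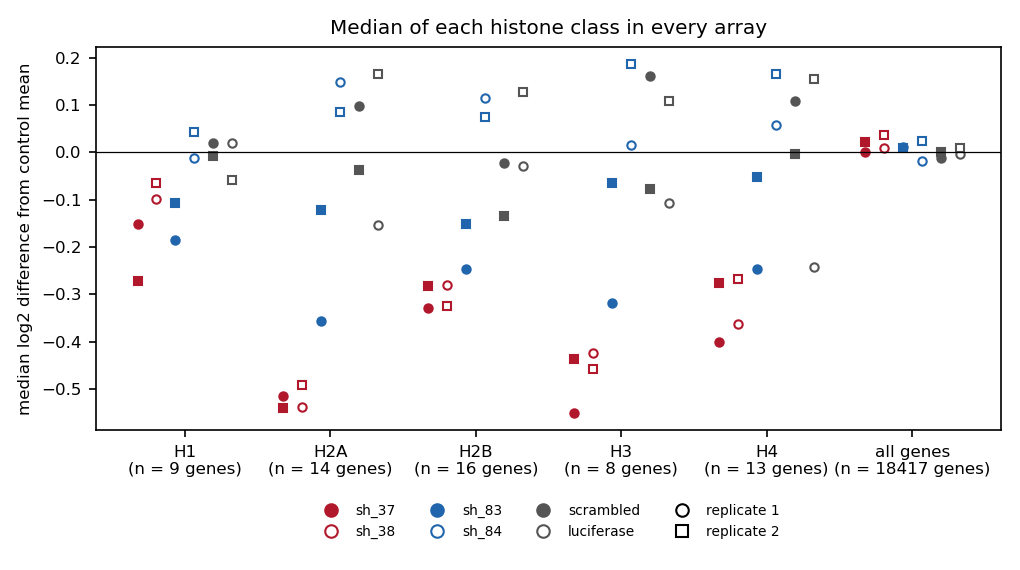
Median log2 difference from the control mean over the coding members of each class, and over all 18417 genes, in each array (y axis). Colour gives the target, filled or open symbols the hairpin and the symbol's shape the replicate. The H2AZ2 arrays (red) lie lowest for H2A and H3, near -0.5, while all genes stay near 0.

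Linker histones fell over both hairpins through 2 members, H1-3 and H1-5. H1-3 read 8.47 and 8.30 with sh_37 and 8.34 and 8.10 with sh_38, against 9.20 and 8.94 in scrambled and 9.20 and 9.13 in luciferase arrays. Every H2AZ2 array lay at least as low as 8.47 and every control at least as high as 8.94. The log2 difference was -0.82 (SE 0.13, limma adjusted p = 0.00593), which is 56.8% of the control level. H1-5 read 10.53 and 10.43 with sh_37 and 10.70 and 10.47 with sh_38, against 11.33 and 11.10 in scrambled and 11.31 and 11.43 in luciferase arrays. The groups again did not overlap, at -0.76 (SE 0.13, limma adjusted p = 0.00747). H1-2 and H1-4, linker histones of most dividing cells, stood at -0.34 and -0.20 and did not pass over both hairpins. In both genes all H2AZ2 arrays still lay below all controls. Both passed with sh_37 alone (limma adjusted p = 0.0458 and 0.0432) and neither with sh_38. H1-10, a replication-independent linker histone on chromosome 3, stood at -0.15.

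H2A genes gave the most falls by number, 6 of 14. H2AC14 had the lowest value, and read 5.86 and 5.83 with sh_37 and 6.13 and 4.87 with sh_38, against 6.95 and 6.50 in scrambled and 6.35 and 6.92 in luciferase arrays. Replicate 2 of sh_38 was far below the other arrays. The log2 difference was -1.005 (SE 0.25, limma adjusted p = 0.0438), at 49.8% of the control level. H2AC4 read 8.83 and 8.92 with sh_37 and 9.02 and 8.77 with sh_38, against 9.62 and 9.72 in scrambled and 9.33 and 9.91 in luciferase arrays. It fell by 0.76 on the log2 scale (limma adjusted p = 0.0199) with no overlap between groups. H2AC8 varied little among the H2AZ2 arrays, at 6.77 and 6.76 with sh_37 and 6.78 and 6.68 with sh_38, against 7.49 and 7.36 in scrambled and 7.21 and 7.34 in luciferase arrays (log2 difference -0.60, SE 0.10, limma adjusted p = 0.00953). H2AC12 (-0.75), H2AC13 (-0.74) and H2AC16 (-0.53) fell as well. H2AC15 stood at -0.87 but did not pass (SE 0.42, limma adjusted p = 0.305). Its arrays of 1 hairpin differed by an SD of 0.581, the most of any member, while the median member had 0.137.

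H2B genes went both ways. The 5 that fell were H2BC3, H2BC14, H2BC9, H2BC6 and H2BC13. H2BC3 read 9.43 and 9.56 with sh_37 and 9.51 and 9.36 with sh_38, against 10.22 and 10.01 in scrambled and 9.97 and 10.44 in luciferase arrays. The highest H2AZ2 array stayed below the lowest control, and the difference was -0.69 (SE 0.15, limma adjusted p = 0.0215). H2BC14 read 12.58 and 12.60 with sh_37 and 12.79 and 12.80 with sh_38, against 13.33 and 13.45 in scrambled and 13.19 and 13.38 in luciferase arrays. It stood at -0.64 (SE 0.11, limma adjusted p = 0.00747), or 64.1% of the control level. H2BC9 (-0.61), H2BC6 (-0.57) and H2BC13 (-0.49) completed the group, each with all H2AZ2 arrays below all controls. H2BC7 stood at -0.62 and overlapped the controls (limma adjusted p = 0.105).

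H2BC21 was the 1 member that rose. It read 10.39 and 10.62 with sh_37 and 10.27 and 9.34 with sh_38, against 9.30 and 8.95 in scrambled and 9.12 and 9.28 in luciferase arrays. Replicates of sh_38 were far apart, and its replicate 2 lay just above the highest control. The log2 difference was 0.99 (SE 0.23, limma adjusted p = 0.0347), a level of 199% of the controls. It was 1.34 with sh_37 (SE 0.21, limma adjusted p = 0.00171) and 0.64 with sh_38 (SE 0.21, limma adjusted p = 0.116). The difference between these hairpins, 0.70 (SE 0.24, limma adjusted p = 0.132), did not pass. The call over both hairpins was lost when scrambled replicate 1, either luciferase array, either sh_37 array or sh_38 replicate 1 was left out. The value ranged between 0.85 and 1.25 with 1 array left out. With a block on the replicate number the call was lost as well.

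Probe sets that H2BC21 shares with other H2B genes gave other values. The probe set shared by H2BC19P, H2BC20P and H2BC21 read 12.46 and 12.37 with sh_37 and 12.44 and 12.46 with sh_38, against 12.73 and 12.68 in scrambled and 12.67 and 12.58 in luciferase arrays. All 4 H2AZ2 arrays lay below the controls, at a difference of -0.23. The probe set shared by H2BC18, H2BP1 and H2BC21 differed by 0.09, and its groups overlapped. With sh_37 it stood at 0.23, and both arrays, at 7.81 and 7.73, lay above the controls, the highest of which was at 7.62. H2BC12 likewise gave different directions on its own and on a shared probe set. Its own values were 12.48 and 12.36 with sh_37 and 12.24 and 12.002 with sh_38, against 11.89 and 11.75 in scrambled and 11.82 and 12.23 in luciferase arrays. The groups overlapped, at 0.35 (limma adjusted p = 0.193), while H2BC12 passed with sh_37 alone (0.50, limma adjusted p = 0.019). In the H2AZ1 arrays H2BC12 read 12.25 and 12.22 with sh_83, and 12.42 and 12.58 under the label sh_84. Its difference from the controls was 0.31 with sh_83 and 0.58 under the label sh_84, neither of which passed, and H2AZ2 minus H2AZ1 was -0.10. The probe set shared by H2BC12, H2BC12L, H2BC17 and H2BC5 stood at -0.37 with all H2AZ2 arrays below all controls. Which part of a transcript each probe set reads was not analysed here.

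**Figure D3:**
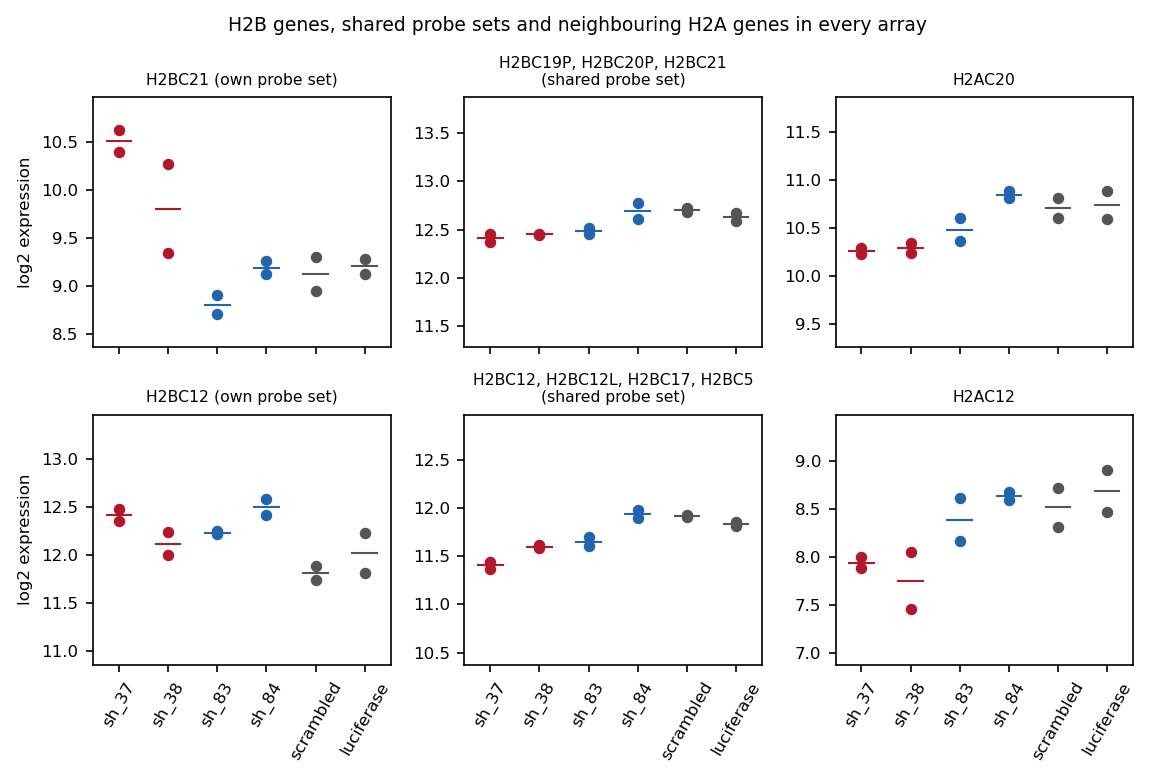
Log2 expression (y axis, equal span in each panel) in every array by hairpin (x axis) for H2BC21 and H2BC12 on their own probe sets, on probe sets shared with other H2B genes, and for the neighbouring H2AC20 and H2AC12. Points are arrays and bars the mean of 2. H2BC21 is high in 3 of 4 H2AZ2 arrays on its own probe set, while its shared probe set and H2AC20 are lower there than in the controls.

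H3 and H4 genes fell in 6 cases. H3C12 read 9.47 and 9.78 with sh_37 and 9.72 and 9.29 with sh_38, against 10.75 and 10.06 in scrambled and 10.07 and 10.45 in luciferase arrays. It had the lowest H3 value (-0.77, SE 0.19, limma adjusted p = 0.0459), though its control arrays spread widely. H3C2 varied least of the H3 genes that fell, at 11.66 and 11.69 with sh_37 and 11.68 and 11.66 with sh_38, against 12.19 and 12.02 in scrambled and 12.04 and 12.29 in luciferase arrays (log2 difference -0.46, SE 0.11, limma adjusted p = 0.0355). H3C1 (-0.57) and H3C3 (-0.54) fell too, and H3C8 lay nearest the controls, at -0.11. Among H4 genes, H4C4 read 10.64 and 10.77 with sh_37 and 10.23 and 10.12 with sh_38, against 11.47 and 10.998 in scrambled and 10.91 and 11.63 in luciferase arrays. Both hairpins put H4C4 below every control (log2 difference -0.81, SE 0.20, limma adjusted p = 0.0388). H4C9 fell by 0.48 on the log2 scale (limma adjusted p = 0.0475). H4C2 (-0.74, limma adjusted p = 0.0546) overlapped the controls through luciferase replicate 1. H4C8 had the highest H4 value, 0.36 (limma adjusted p = 0.462), with overlapping groups.

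Histone genes known chiefly from germ cells gave no calls over both H2AZ2 hairpins. None of the testis genes H1-6, H1-7, H2AC1 and H2BC1 and the oocyte gene H1-8 passed, and their log2 differences ran between -0.01 and 0.30. H1-6 read 5.52 and 5.14 with sh_37 and 5.06 and 5.12 with sh_38, against 4.89 and 4.97 in scrambled and 4.98 and 4.80 in luciferase arrays. All 4 H2AZ2 arrays lay above the controls, and H1-6 passed with sh_37 alone (0.42, limma adjusted p = 0.0315). That call was lost without sh_37 replicate 1, where the value was 0.23. The antisense RNA H1-10-AS1 stood at 0.13, and the pseudogenes H1-9P and H2BC19P at 0.17 and 0.07.

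Genes that lie head to head were set side by side, and differences within pairs were not tested. In 9 pairs an H2B and an H2A gene on opposite strands start within 500 bases of each other, at distances of 215 to 248 bases in RefSeq (GRCh38.p14). The H2B value lay above the H2A value in 7 of 9 pairs, with medians of -0.17 for the H2B and -0.44 for the H2A genes. Not every gap was large beside its spread, as in H2BC1 (0.06, SE 0.12) and H2AC1 (-0.01, SE 0.12). H2BC21 and H2AC20, whose starts are 236 bases apart, were farthest apart: 0.99 for H2BC21 against -0.45 for H2AC20. H2AC20 read 10.23 and 10.30 with sh_37 and 10.35 and 10.24 with sh_38, against 10.82 and 10.61 in scrambled and 10.60 and 10.89 in luciferase arrays. H2AC20 missed the threshold over both hairpins (limma adjusted p = 0.0511) and passed with sh_37 (-0.46, limma adjusted p = 0.0156) and with sh_38 (-0.43, limma adjusted p = 0.0464). In the pair H2BC8 and H2AC8 the values were -0.17 and -0.60, and in H2BC14 and H2AC14 they were -0.64 and -1.005. H2BC4 and H2AC6 ran the other way, at -0.39 and -0.24. H2BC12 and H2AC12, separated by 248 bases, stood at 0.35 and -0.75. They were not among the 9 pairs because the strand of H2AC12 was not used here.

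**Figure D4:**
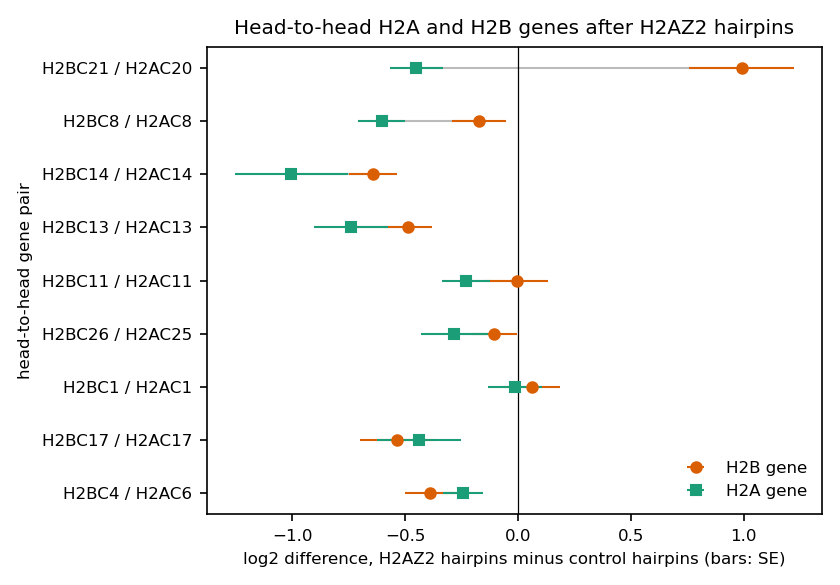
Log2 difference of H2AZ2 minus control arrays (x axis) for the H2B gene (circles) and the H2A gene (squares) of each head-to-head pair (rows), with bars of 1 SE. H2BC21 lies at 0.99 and H2AC20 at -0.45, and in 7 of 9 pairs the circle is to the right.

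Members with a long annotated gene were set beside the others, with the limit of 1000 bases chosen after the values were seen and therefore with no test. In RefSeq 8 coding members span 1300 to 16753 bases and the other 52 span 386 to 797. None of the 8 long genes fell and 1 rose, with a median of -0.00, while 19 of the 52 short genes fell, with a median of -0.44. Within H2B the long genes H2BC4, H2BC5, H2BC12 and H2BC21 had a median of 0.16 and the 12 short genes a median of -0.51. H2BC4 did not follow the other long H2B genes, at -0.39 (limma adjusted p = 0.0783). One of the 8 is H4C15, whose value is that of H4C14. H1-7, H1-8 and H1-10 are also among the 8 and lie outside the clusters, so over all members span is mixed with location and gene type.

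By position, 31 coding members lie in the telomeric block of the large cluster on chromosome 6 and 18 in its centromeric block. In the telomeric block 10 fell, with a median of -0.34, and in the centromeric block 9 fell, with a median of -0.51. The chromosome 1 cluster that holds H2BC21 has 5 members, of which 0 fell and 1 rose, with a median of -0.40. The chromosome 1 pair H2BC26 and H2AC25 stood at -0.10 and -0.28. Differences between blocks were not tested.

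The 2 H2AZ2 hairpins were then examined one by one, against the same controls, so their results are not independent. With sh_37, 21 members fell and 3 rose, where 7.19% of all genes fell and 5.72% rose. With sh_38, 21 fell and 0 rose, where 3.33% of all genes fell and 1.28% rose. The median over the coding members was -0.38 with sh_37 and -0.35 with sh_38, although H2AZ2 itself was lower with sh_37 (difference between the hairpins -0.50, limma adjusted p = 0.00763). Between the hairpins 0 members passed, where 2.2% of all genes were lower and 4.07% higher with sh_37. At an unadjusted limma p under 0.05 there were 4 members, against 17.7% of all genes.

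The largest falls with sh_37 were in H1-5 (-0.81, SE 0.10, limma adjusted p = 0.000339), H2AC4 (-0.77) and H2BC14 (-0.74), and the rises were in H2BC21, H2BC12 and H1-6. With sh_38 they were in H2AC14 (-1.18, SE 0.28, limma adjusted p = 0.0406), H4C4 (-1.07, limma adjusted p = 0.0101) and H1-3 (-0.90, limma adjusted p = 0.0013). H2AC14 stood at -0.55 with sh_38 replicate 1 alone. The count for sh_37 was 7 without its replicate 1 and 9 without its replicate 2, and the rises numbered 1 without replicate 1. The count for sh_38 was 2 without its replicate 2, 13 without scrambled replicate 1 and 13 without luciferase replicate 2.

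**Figure D5:**
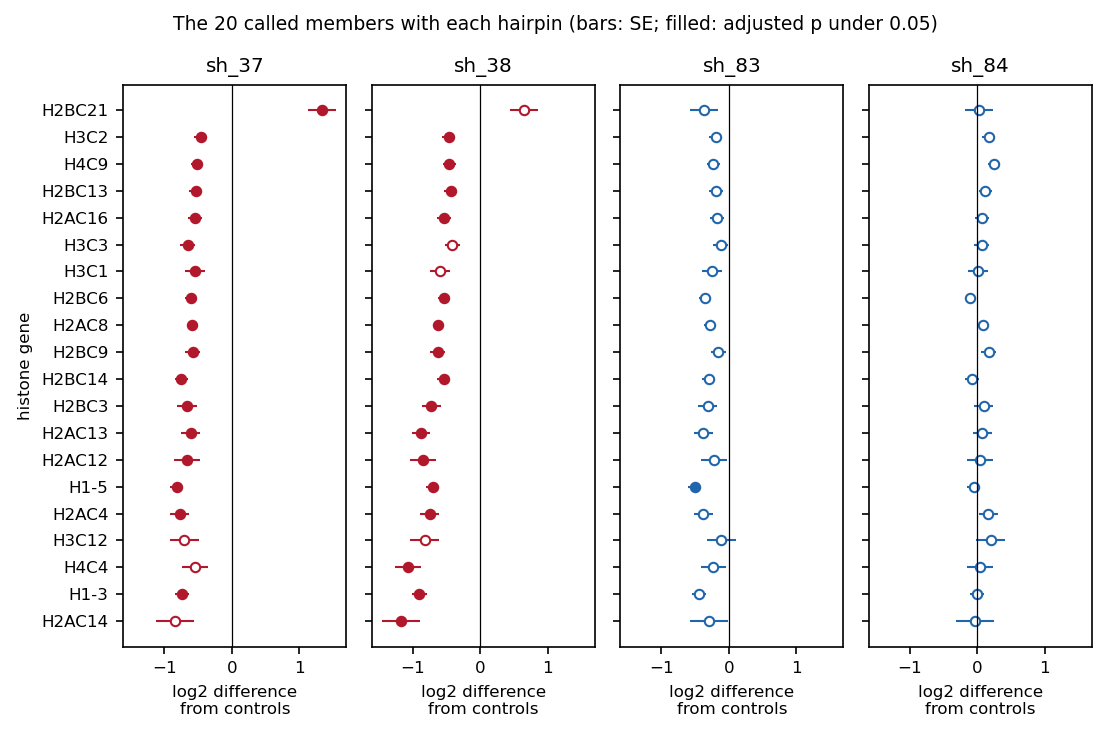
Log2 difference from the 4 control arrays (x axis) for the 20 members called in the comparison of H2AZ2 hairpins with controls (rows), with each of the 4 targeting hairpins (panels). Bars are 1 SE and filled symbols an adjusted p under 0.05. The 19 lower members lie left of 0 with both sh_37 and sh_38, and around 0 with sh_84. With sh_83 all 19 also lie left of 0, nearer to it for most, and only H1-5 is filled.

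H2AZ1 hairpins against the controls gave 0 calls among the members, where 0% of all genes passed in limma. At an unadjusted limma p under 0.05 there were 3 members, against 3.45% of all genes, and no member's 4 H2AZ1 arrays lay wholly on 1 side of the controls (2.58% of all genes lay wholly below and 0.755% wholly above). The median over the coding members was -0.04. The median per array was -0.29 and -0.11 with sh_83 and 0.09 and 0.13 in the arrays labelled sh_84, against 0.05, -0.02, -0.12 and 0.12 in the controls. Each hairpin had 1 array within the range of the controls. With sh_83, 1 member fell, where 0.489% of all genes fell and 0.152% rose. This was H1-5, which read 10.79 and 10.78 with sh_83, against 11.33 and 11.10 in scrambled and 11.31 and 11.43 in luciferase arrays (log2 difference -0.50, SE 0.10, limma adjusted p = 0.047). That call was lost when scrambled replicate 1 or any array of luciferase, sh_37, sh_83 or sh_84 was left out, with values between -0.56 and -0.45. H1-3 stood at -0.44 with sh_83 (limma adjusted p = 0.108), and 49 of 63 members had a value below 0, against 46.6% of all genes. In the arrays labelled sh_84, 0 members passed, where 0.342% of all genes fell and 0.0109% rose. There, 9 of 63 members had a value below 0, against 47.6% of all genes, and 9 an unadjusted limma p under 0.05, against 8.36% of all genes.

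Between sh_83 and the arrays labelled sh_84, 57 of 63 members were lower with sh_83, against 47.1% of all genes. One member passed, where 0.472% of all genes were lower and 0.717% higher. This was H2BC11, which read 7.91 and 7.95 with sh_83, against 8.45 and 8.51 in the arrays labelled sh_84 (log2 difference -0.55, SE 0.11, limma adjusted p = 0.0434). Against the controls H2BC11 differed by -0.17 with sh_83 and by 0.38 under the label sh_84, neither of which passed. Its call was lost when any 1 of the 8 targeting arrays was left out, at values of -0.58 to -0.52. The 2 control hairpins differed in 0 members and 0% of all genes, with 5 members at an unadjusted limma p under 0.05, against 7.51% of all genes.

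H2AZ2 hairpins were also set against H2AZ1 hairpins, a group that includes the arrays labelled sh_84, where H2AZ1 was not measurably lower. The comparison is therefore not a test of the difference between the isoforms. Here 17 members were lower and 1 higher with H2AZ2 hairpins, where 2.28% of all genes were lower and 2.08% higher. In 24 members the 4 H2AZ2 arrays lay wholly below the 4 H2AZ1 arrays and in 1 wholly above, against 6.84% and 6.43% of all genes. Among the members that passed, the largest lower values were in H3C12 (-0.81, SE 0.19, limma adjusted p = 0.0327), H4C2 (-0.75), H2AC12 (-0.67), H2AC4 (-0.65) and H2BC9 (-0.61). H2AC14 (-0.84, limma adjusted p = 0.0736) and H4C4 (-0.72, limma adjusted p = 0.0542) did not pass. H4C2 read 10.40 and 10.84 with sh_37 and 10.43 and 10.65 with sh_38, against 10.89 and 11.50 with sh_83 and 11.42 and 11.48 in the arrays labelled sh_84. H2BC21 was higher by 1.16 (SE 0.23, limma adjusted p = 0.0149), and read 8.70 and 8.90 with sh_83 and 9.13 and 9.26 in the arrays labelled sh_84. With sh_84 left out 0 members were lower. The count was 1 without sh_84 replicate 2, 2 without sh_84 replicate 1 or scrambled replicate 1, and 6 without sh_37 replicate 1. It was 9 without sh_37 replicate 2, sh_38 replicate 2 or sh_83 replicate 2, and 11 without sh_38 replicate 1 or luciferase replicate 1.

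Histone genes measured only on shared probe sets are given as values, without a test. Of 16 probe sets whose symbols all meet the member rule, 3 repeat the values of another in every array, which leaves 13 measurements. Of these, 10 had all 4 H2AZ2 arrays below all controls, 0 above, and 3 overlapped, where 7.46% of all genes lay wholly below and 4.14% wholly above. H3C13, H3C14 and H3C15 account for 3 of the 13. The probe set shared by H3C4 and H2AC7 read 11.43 and 11.39 with sh_37 and 11.58 and 11.50 with sh_38, against 12.18 and 12.09 in scrambled and 11.94 and 12.02 in luciferase arrays (difference -0.58). The probe sets shared by H4C11 and H4C12 stood at -0.42 and -0.50, that of H2BC15 and H2AC15 at -0.48, and that of H3C13, H3C14 and H3C15 between -0.43 and -0.42. A probe set shared by H4C14 and H4C15 stood at 0.66 with overlapping groups, while the probe set assigned to each of them alone stood at -0.40. Since members of a class share much of their coding sequence, near-identical copies may contribute to each other's probe sets.

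Factors that make or process histone transcripts were taken from a list of 21 genes, of which 19 were measured. With H2AZ2 hairpins 2 of 19 fell and 0 rose, with a median of -0.14, where 2.44% of all genes fell and 0.863% rose. CCNE2, a cyclin E that activates CDK2, fell by 0.62 on the log2 scale (SE 0.14, limma adjusted p = 0.0331). It read 8.67 and 8.83 with sh_37 and 9.26 and 9.11 with sh_38, against 9.74 and 9.52 in scrambled and 9.42 and 9.68 in luciferase arrays. ERI1, an exonuclease that trims and degrades histone mRNA, read 7.60 and 7.57 with sh_37 and 8.02 and 7.75 with sh_38, against 8.39 and 8.20 in scrambled and 8.35 and 8.47 in luciferase arrays (log2 difference -0.62, SE 0.11, limma adjusted p = 0.0102). In both genes sh_37 arrays were the lowest. SLBP, the stem-loop binding protein, and NPAT, the coactivator of histone transcription, both stood at -0.24 and did not pass (limma adjusted p = 0.127 and 0.336).

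With sh_37 alone 5 of 19 fell, where 7.19% of all genes fell. These were CASP8AP2, a factor of histone locus bodies (-0.48), CCNE2 (-0.84), the kinase gene CDK2 (-0.71), ERI1 (-0.77) and SLBP (-0.31, limma adjusted p = 0.0155). With sh_38 there were 2, CDK2 (-0.60) and ERI1 (-0.47), where 3.33% of all genes fell. With sh_83 there were 0, and 0 under the label sh_84, where 0.489% and 0.342% of all genes fell. For CDK2 sh_83 minus sh_84 was -0.76 (lower, SE 0.13, limma adjusted p = 0.0218). Of 13 histone genes listed outside the clusters 11 were measured, 3 of them members under other names. Only H2AZ2 passed with H2AZ2 hairpins, while H2AX, the variant of the DNA damage response, fell with sh_37 (-0.39, limma adjusted p = 0.0101). MACROH2A2 fell with sh_38 (-0.47, limma adjusted p = 0.0219) and was higher with sh_37 than with sh_38 (0.67, limma adjusted p = 0.00528). For H3-5 the value of sh_83 minus sh_84 was -0.48 (lower, limma adjusted p = 0.0447).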

How the data were processed

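Total RNA of 12 arrays was analysed. The deposited values are log2 expression, 1 per probe set. RMA made them, per the submitters' processing notes, and its version is not given in the sources used here. Of 33297 probe sets, 19460 carried 1 gene symbol in the platform annotation, 1754 several and 12083 were not listed. The brightest single-symbol probe set per gene was kept, giving 18417 genes, and all 63 members matched RefSeq. The deposited values were not normalized again. Column medians were 7.00 to 7.10 and the lowest correlation between arrays 0.982. Replicates of a hairpin correlated at 0.992 to 0.998 and were not duplicates. Signal over background is unknown.

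Differences were tested with limma 3.58.1 (R 4.3.3), two-sided, with Benjamini-Hochberg adjustment over all genes and a threshold of 0.05. Targets were compared with the hairpin as a random block (consensus correlation 0.157). Single hairpins were tested with 6 groups of 2 arrays, where spread between hairpins of 1 target does not enter the error. The scripts were tested on simulated data. Named members are H2BC21, all members called with H2AZ2 hairpins, the lowest and highest value of each class, and the largest calls of the other comparisons. Further genes illustrate pairs, shared probe sets and near misses, and were picked with their values in view. The members, lists and rules were chosen with earlier results of these data known.

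Same-numbered replicates of different hairpins deviated together (correlation over 0.1) in 9 of 15 pairs of hairpins. The correlations ran from -0.47 (scrambled and luciferase) to 0.68 (scrambled and sh_38). The main tests leave the replicate number out, so spread shared by number is not modelled in them. With a block on the number, run as an alternative, 12 of the 20 members called with H2AZ2 hairpins stayed called. Alternatives covered the blocks, each array and hairpin left out, the control used, shared probe sets, centring, renormalization, a filter on the dimmest 25% of genes, the variance model and a small nucleolar RNA covariate. Promoters and gene spans are from RefSeq GRCh38.p14, and figures were drawn with matplotlib 3.10.9.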

Additional observations from a re-analysis of the deposited data

Results flagged for a closer look

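Among 27 named members, 81 groups of 4 arrays were checked for 1 array far from the rest, and chance would pick out about 1 in 20. The check compares the gap to the nearest array with the whole range of the group, and 4 groups exceeded its limit. H2AC13 was low in replicate 2 of sh_38, at 10.04 against 10.55 to 10.63 in the other H2AZ2 arrays (ratio 0.864). H2AC12 was low in replicate 1 of sh_83, at 8.17 against 8.60 to 8.68 in the other H2AZ1 arrays (ratio 0.835). H4C2 was low in the same array, at 10.89 against 11.42 to 11.50 (ratio 0.868). In the controls H4C2 was low in replicate 1 of luciferase, at 10.79 against 11.48 to 11.51 (ratio 0.957), and with that array left out H4C2 stood at -0.91 with H2AZ2 hairpins.

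The H2AZ1 hairpins differed in H2BC11, for which sh_83 minus the arrays labelled sh_84 gave a log2 difference of -0.55 (limma adjusted p = 0.0434).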

How the results depend on the processing

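All 20 members called with H2AZ2 hairpins kept their direction under 28 alternatives, as did the 18 still measured after the dimmest 25% of genes were left out. Several alternatives could not alter a direction. The threshold, the blocks, the variance model and leaving out H2AZ1 arrays keep the difference between H2AZ2 and control arrays as it is. The number that fell, 19, ranged between 2 and 23 with 1 array left out (2 without scrambled replicate 1, 12 without luciferase replicate 1, 7 without luciferase replicate 2). It was 1 without the scrambled hairpin, 0 without luciferase and 7 with the small nucleolar RNA covariate. The rise of H2BC21 alone became 2 rises with the mean of single-hairpin contrasts or without sh_38. It became 0 without scrambled, sh_37 or luciferase, and 0 to 1 with 1 array left out.

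With the replicate block 12 of these 20 members stayed called, H2BC21 was not (0 rises), the members lower with H2AZ2 than with H2AZ1 hairpins numbered 10, those that fell with sh_83 2 and those lower with sh_83 than with sh_84 3. Other counts kept within 1.5 times under the block.

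Members lower with H2AZ2 than with H2AZ1 hairpins, 17 in all, numbered 30 with the mean of single-hairpin contrasts, 8 without scrambled, 4 without sh_37, 0 without sh_84 and 8 with the covariate. With 1 array left out they ranged between 1 and 24, and the arrays that moved the count by over 1.5 times were scrambled replicate 1 (2), sh_37 replicates 1 (6) and 2 (9), sh_38 replicates 1 (11) and 2 (9), sh_83 replicate 2 (9), sh_84 replicates 1 (2) and 2 (1) and luciferase replicate 1 (11). The 1 higher member was lost (0) without sh_37, sh_83 or sh_84.

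Falls with sh_37, 21, became 33 at a threshold of 0.1 and ranged between 7 (without sh_37 replicate 1) and 29, with 9 without sh_37 replicate 2. Its 3 rises became 1 without the scrambled hairpin or with luciferase as the only control, and 5 with shared probe sets added. Repeats among the shared probe sets were not removed there, and those shared by H4C14 and H4C15 (0.82 with sh_37) hold identical values. The rises with sh_37 numbered 1 to 3 with 1 array left out (1 without sh_37 replicate 1). Falls with sh_38, 21, became 12 without luciferase and 10 with scrambled as the only control, and ranged between 2 (without sh_38 replicate 2) and 26, with 13 without scrambled replicate 1 or luciferase replicate 2. Rises with sh_38 became 1 with the covariate and 0 to 1 with 1 array left out (1 without sh_38 replicate 2). The fall with sh_83 became 0 without sh_37, sh_84 or luciferase, with either control alone and after centring, 2 with trend and robust variances, and 0 to 1 with 1 array left out (kept only without scrambled replicate 2, sh_38 replicate 1 or sh_38 replicate 2). Rises in the arrays labelled sh_84 became 1 with trend and robust variances or a threshold of 0.1, and 2 with the covariate. Between sh_37 and sh_38 1 member was lower at a threshold of 0.1, 1 was higher with trend and robust variances or the covariate, and 0 to 4 were higher with 1 array left out (4 without sh_38 replicate 1). Between sh_83 and sh_84 the 1 lower member became 0 without sh_37 or sh_38 and after centring, 2 after renormalization or the filter, 5 with trend and robust variances, 3 with the covariate and 4 at a threshold of 0.1. With 1 array left out it became 0 to 1, and was kept only without a control array.

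The class median of H1 was -0.10 after renormalization, -0.20 with the filter and between -0.18 and -0.11 with 1 array left out. That of H2B was -0.39 with the filter. Alternatives were run gene by gene for the 27 named members. Of these, only H2AC1 and H2BC11, both near 0 and not called with H2AZ2 hairpins, changed sign. H2AC1 became 0.0852 without scrambled, 0.169 without sh_37 and -0.0814 to 0.0516 with 1 array left out (above 0 without scrambled replicate 2, luciferase replicate 1 or either sh_37 array). H2BC11 became 0.0519 without scrambled, 0.0489 without sh_37, 0.0224 after renormalization, 0.0399 with the covariate and -0.085 to 0.0424 with 1 array left out (above 0 without scrambled replicate 1, luciferase replicate 2 or either sh_37 array). The cause was not tested for any of these changes, apart from the fewer arrays or genes that an alternative holds. The control arrays, 4 in number, decide many calls, and the small differences of members near background cannot be judged since signal over background is unknown.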
